A study of Mus musculus with 8 samples.

Results

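The Notch receptors, ligands and targets were followed in cultured bone mesenchymal stem cells (MSCs, stromal cells that can form bone, fat and cartilage) as a set of 10 genes chosen by name out of the 53465 gene identifiers in the count table. The set holds the receptors Notch1, Notch2, Notch3 and Notch4, the ligands Jag1, Jag2, Dll1 and Dll4, and the targets Hes1 and Hey1. All 10 were found in the table, and 9 had enough counts to be tested among 14369 genes. Only Dll4 had 0 counts in every sample.

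The MSCs came from the hind limb bones of wild-type male C57BL/6N mice aged 3 to 5 months. Per the labels they were grown in control α-MEM medium with 5% CO2, and FACS followed on day 12 of culture. The study's methods describe a sort for CD45-, TER-119-, Sca-1+ and CD140a+ cells, after which one part was returned to 2% oxygen (hypoxia) and another was moved to 21% oxygen (normoxia) for a further week, and 4 samples per group were sequenced. No transgene, drug or differentiation medium is given for either group, and the samples are cells expanded on plastic away from their niche. Whether a sample pooled several mice is not stated in the sources used here.

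Notch receptors are membrane proteins that are switched on by ligands on a neighbouring cell. Ligand binding exposes the receptor to cleavage by an ADAM protease and then by the γ-secretase complex, and the freed intracellular part enters the nucleus and joins the DNA-binding protein RBPJ and a Mastermind coactivator to switch on targets such as Hes1 and Hey1. In bone marrow stromal cells the pathway is known for holding back osteoblast differentiation and for keeping a pool of progenitors.

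Notch1 and Notch2 were lower in normoxia, and they were the only members that passed the test (limma-trend, adjusted p-value under 0.05 over all tested genes). Thus 2 of 9 tested members were called, both lower, beside a background of 34.6% of all tested genes called in either direction and 16.5% called lower, so the share of members called was not above that of genes in general. No member was called higher, against 18.0% of all tested genes. The median log2 change of the 9 members was -0.27 and 6 were negative, against a median of 0.005 and 49.5% negative over all tested genes. The groups did not overlap for 1 member, Notch2, where 32.6% of all tested genes had groups that did not overlap.

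Promoters are shown for Notch1 and Notch2, the members that passed the test, for Notch3, whose call depended on the fit, and for Rbpj, which encodes the DNA-binding partner of the cleaved receptors and fell as well. The sequences are those of RefSeq on GRCm38.p6, from 250 bases before to 50 after the start that RefSeq gives, and this table held 8 of the 10 members. The RefSeq start of Notch1 lies inside the longer span that GENCODE gives this gene, so its window is within the coordinates printed for Notch1 below. The windows are chr2:26503773-26504072 on the minus strand for Notch1, chr3:98013288-98013587 on the plus strand for Notch2, chr17:32166841-32167140 on the minus strand for Notch3 and chr5:53590096-53590395 on the plus strand for Rbpj. Capitals mark the word ACGTG, the core of the hypoxia response element, on either strand.
Notch1: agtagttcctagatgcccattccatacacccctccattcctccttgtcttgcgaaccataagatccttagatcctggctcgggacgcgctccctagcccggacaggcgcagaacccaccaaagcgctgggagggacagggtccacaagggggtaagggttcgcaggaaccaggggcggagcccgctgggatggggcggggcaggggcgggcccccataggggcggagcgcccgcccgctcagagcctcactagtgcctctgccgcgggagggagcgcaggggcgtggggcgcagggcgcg
Notch2: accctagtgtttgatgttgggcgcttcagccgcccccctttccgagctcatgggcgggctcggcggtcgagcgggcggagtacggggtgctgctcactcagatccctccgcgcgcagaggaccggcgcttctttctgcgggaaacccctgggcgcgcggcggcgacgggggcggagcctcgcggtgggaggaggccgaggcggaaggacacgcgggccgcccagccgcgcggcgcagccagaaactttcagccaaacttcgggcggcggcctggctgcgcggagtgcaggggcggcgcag
Notch3: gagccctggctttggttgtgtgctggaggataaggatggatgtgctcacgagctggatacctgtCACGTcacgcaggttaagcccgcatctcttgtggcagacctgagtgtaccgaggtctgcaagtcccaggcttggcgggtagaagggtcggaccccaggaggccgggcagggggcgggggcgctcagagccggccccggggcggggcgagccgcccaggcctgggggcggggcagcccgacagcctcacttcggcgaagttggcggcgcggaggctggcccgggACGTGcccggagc
Rbpj: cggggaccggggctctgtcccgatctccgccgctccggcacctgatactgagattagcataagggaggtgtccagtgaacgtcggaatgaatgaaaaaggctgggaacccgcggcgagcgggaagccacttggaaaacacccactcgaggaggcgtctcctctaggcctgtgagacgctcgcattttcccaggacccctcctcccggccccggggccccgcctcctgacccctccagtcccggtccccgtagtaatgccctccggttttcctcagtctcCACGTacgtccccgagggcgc

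All 4 windows were rich in G and C, with 68.3% for Notch1, 73.0% for Notch2, 70% for Notch3 and 64.7% for Rbpj. The word ACGTG occurred in 2 places in the Notch3 window and in 1 place in the printed Rbpj window, and these letters were not in the Notch1 and Notch2 windows. Rbpj has a second, overlapping RefSeq window (chr5:53590236-53590535, plus strand) that is not printed and also held 1 match. The core also takes the form GCGTG, which was not searched for or marked. Taking either strand, GCGTG can be read in the Notch1, Notch2 and Notch3 windows, so the capitals do not separate windows with the core from windows without it. The shares given here are those of ACGTG alone. Across all 32851 promoter windows of the table, 19.6% held ACGTG on either strand. The RBPJ word GTGGGAA was in none of the windows of the 8 members, and 6.38% of all windows held it. The E-box CANNTG was found in 72.3% of all windows and in those of Jag1, Dll1 and Notch4 among the members. The N-box CACNAG, which Hes proteins bind, was found in 42.5% of all windows, and among the receptors 3 matches lay in the Notch1 window, 2 in that of Notch3 and 1 in that of Notch2. The words can overlap each other, and a match describes the letters only.

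Depth set how firmly each member could be read. Total counts per sample ranged from 12898291 to 25132141, the highest being hypoxia replicate 1. At these depths 3 counts correspond to 0.119 to 0.233 CPM of the unscaled totals, a floor for counting error alone. CPM is the usual depth-scaled count, and all other CPM values here use TMM-scaled library totals. Dll4, which encodes a ligand of endothelial cells, was thus not detectable at this depth. Dll1 had 4 to 12 counts per sample, Jag2 had 5 to 20 and Notch4 had 8 to 42, so their values carry large counting error. The annotation places exons of other genes over part of the exons of Notch1, Notch2, Notch3, Dll1 and Dll4, from 214 overlapped exon bases for Dll4 to 1482 for Notch1. Since strand use in the counting is not stated, reads from these stretches cannot be assigned.

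To place the members on one scale, CPM was divided by the exon length of each gene in kilobases. In hypoxia the order of the mean levels was Notch2 (16.6 CPM per kb), Jag1 (11.4), Notch3 (5.54), Hes1 (5.48), Notch1 (1.56), Hey1 (0.940), Jag2 (0.160), Dll1 (0.154) and Notch4 (0.13). Notch3 overlapped with Hes1, Jag2 with Dll1, and Dll1 with Notch4, while the other neighbours in this order did not overlap over the 4 samples. In normoxia Jag1 stood first at 12.5 CPM per kb and Notch2 second at 12.4, and these overlapped. Hes1 followed at 6.96, above Notch3 at 4.58, and did not overlap with it.

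Among the receptors, Notch2 made up most of the level per length. Its share of the 4 receptors was 70% ± 3.95 at 2% oxygen and 68.1% ± 1.99 at 21% (SD, 4 samples a group), with overlap. Notch3 held 22.9% ± 4.13 and 25% ± 1.82, and Notch1 held 6.51% ± 0.287 and 5.97% ± 0.674. The summed receptor level ranged from 20.6 to 27.5 CPM per kb in hypoxia and from 17 to 19.0 in normoxia, without overlap. Among the ligands, Jag1 held between 96.3% and 98.9% in each sample, so the other ligands were minor in both groups. The summed ligand level ranged from 10.9 to 12.1 CPM per kb in hypoxia and from 10.8 to 14.5 in normoxia, and the groups overlapped.

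**Figure D1:**
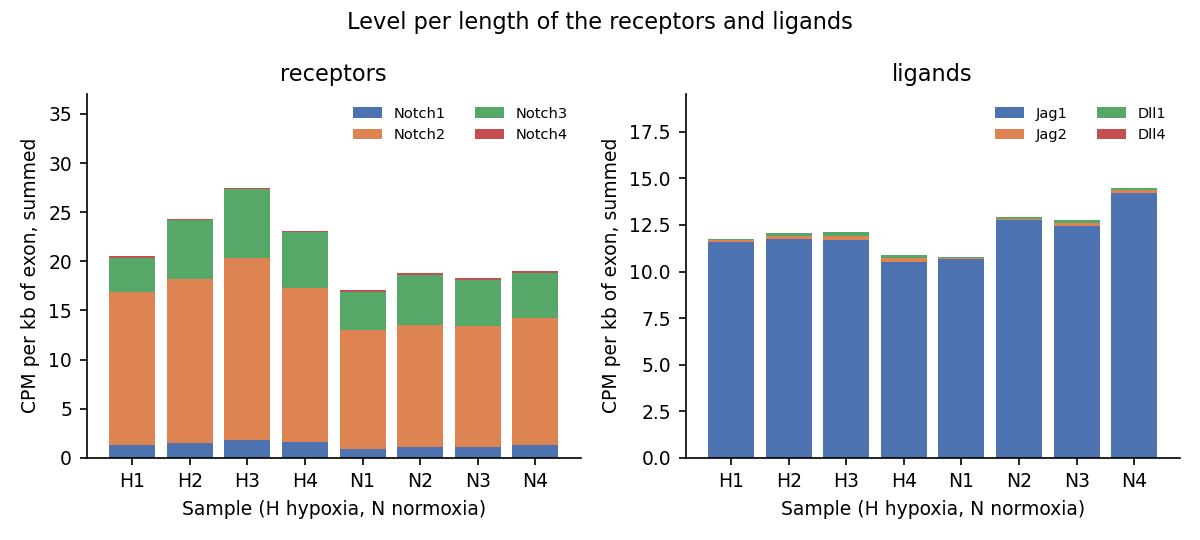
Stacked bars give the level per length (CPM per kb of exon) of the 4 receptors (left) and 4 ligands (right) in each sample, H1 to H4 for hypoxia and N1 to N4 for normoxia. Notch2 is the largest part of every receptor bar and Jag1 of every ligand bar, and the receptor bars of hypoxia, from 20.6 to 27.5, all exceed those of normoxia, from 17 to 19.0.

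Notch2 (ENSMUSG00000027878, GRCm38, chromosome 3, 98013527 to 98150361), the main receptor of these cells, had 168, 180, 200 and 169 CPM in hypoxia replicates 1 to 4. In normoxia it had 130, 134, 133 and 139 CPM. Every normoxia sample was below every hypoxia sample, and normoxia spread less. The log2 change was -0.42 (SE 0.064, limma-trend adjusted p = 0.00053), a mean level lower by 25.3%. The difference was negative in 4 of 4 same-numbered pairs, from -0.60 to -0.28 on the log2 scale.

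Notch1 (ENSMUSG00000026923, GRCm38, chromosome 2, 26457903 to 26516663), a receptor used in many lineages, had 18.4, 21.9, 25.5 and 22.7 CPM in hypoxia. The level in normoxia was 12.9, 15.1, 15.8 and 18.5 CPM. The groups met only at their edges, where normoxia replicate 4 lay just above hypoxia replicate 1. The log2 change was -0.51 (SE 0.12, limma-trend adjusted p = 0.0080), and all 4 pairs were lower in normoxia, from -0.68 to -0.29. After removal of the part of each sample that follows transcript GC content and length, Notch1 and Notch2 changed by -0.33 and -0.30 and both stayed past the threshold, with the replicate number as a block and without it. Under this correction 29.5% of all tested genes were called, and 43.2% with the block as well.

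Notch3 (ENSMUSG00000038146, GRCm38, chromosome 17, 32120820 to 32166852), a receptor of smooth muscle and pericytes, had 27.8, 48.6, 56.4 and 46.4 CPM in hypoxia. The normoxia samples had 31.6, 41.1, 38.4 and 37.2 CPM. Hypoxia replicate 1 was the lowest of all 8 samples, while the other hypoxia samples were all above normoxia. The log2 change was -0.23 (SE 0.17) and did not pass the test (limma-trend adjusted p = 0.33).

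The Notch3 call depended on how hypoxia replicate 1 was treated and on the GC and length correction. When the replicate number was entered as a block, Notch3 passed (limma-trend adjusted p = 0.027), as it was without hypoxia replicate 1, at -0.44 (limma-trend adjusted p = 0.0035). When block and GC and length correction were combined, the change was -0.036 (limma-trend adjusted p = 0.75). Genes of mural cells, the contractile cells around vessels that use Notch3, were measured beside it. Of 8 mural markers 7 were tested, and 3 fell (Acta2, Myh11 and Des) and 0 rose, beside 16.5% of all tested genes called lower. With the replicate block Cspg4 fell as well and Rgs5 rose, beside 22.7% of all tested genes lower and 23.3% higher. The Des call was lost with the GC and length correction (limma-trend adjusted p = 0.077). When block and correction were combined, Cspg4 changed by -0.043 and did not pass (limma-trend adjusted p = 0.51), while Rgs5 still passed. The summed level of the mural markers was 3096 to 4220 CPM in hypoxia and 2362 to 2782 CPM in normoxia, mostly from Acta2, with Kcnj8 at 0 to 2 counts. The part of these cells in the Notch3 values was not tested, and in bulk samples fewer cells of a type and less RNA per cell cannot be told apart.

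Notch4 (ENSMUSG00000015468, GRCm38, chromosome 17, 34564268 to 34588503), known mainly from endothelium, had 1.76, 0.883, 0.937 and 0.616 CPM in hypoxia. In normoxia it had 1.26, 1.51, 1.44 and 1.28 CPM. Here hypoxia replicate 1 was the highest of all 8 samples, and the other hypoxia samples were all below normoxia. The log2 change of 0.41 (SE 0.27) did not pass the test (limma-trend adjusted p = 0.27). It was 0.64 without hypoxia replicate 1 and still did not pass (limma-trend adjusted p = 0.054). Of 8 endothelial markers, Tie1, Emcn and Cldn5 were at 0 in every sample, Pecam1 had 0 to 2 counts, and Cdh5 and Esam had 0 to 3. Tek, at 13 to 33 counts, and Kdr, at 1 to 10, were tested and did not pass (limma-trend adjusted p = 0.37 and 0.64). Together the 8 markers reached 1.62 to 2.73 CPM in hypoxia and 1.43 to 2.31 CPM in normoxia, mostly from Tek.

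**Figure D2:**
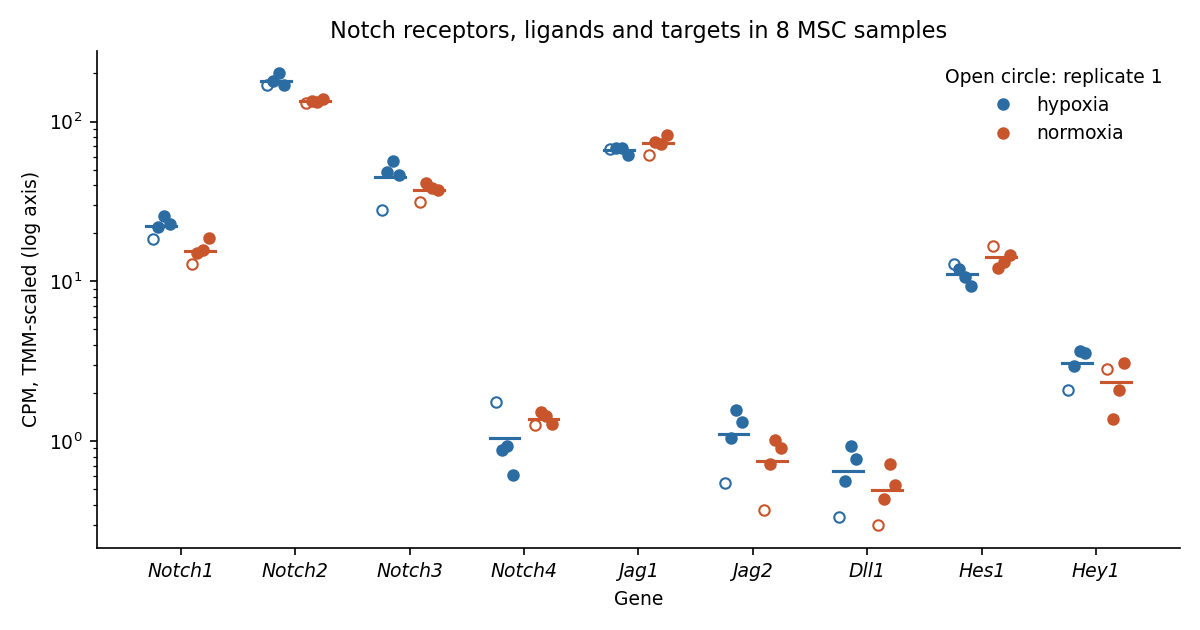
Points give the CPM of each detected member in each sample on a log axis, blue for hypoxia and orange for normoxia, with open circles for replicate 1 and bars for the group mean. Notch2 and Jag1 lie highest, Notch1 and Notch2 are shifted down in normoxia, and the open circle of hypoxia stands apart from the other hypoxia points for Notch3 and Notch4.

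Jag1 (ENSMUSG00000027276, GRCm38, chromosome 2, 137081456 to 137116644), which encodes the Jagged ligand best known in marrow stroma, had 67.6, 68.5, 68.1 and 61.3 CPM in hypoxia. Normoxia samples had 62.2, 74.3, 72.5 and 82.9 CPM. The groups overlapped because normoxia replicate 1 was low, while the other normoxia samples were above every hypoxia sample. The log2 change was 0.13 (SE 0.083) and did not pass the test (limma-trend adjusted p = 0.25, or 0.13 in the paired fit with the block).

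The other ligands were near the limit of detection. Jag2 (ENSMUSG00000002799, chromosome 12, 112907819 to 112929776) had 0.543 to 1.56 CPM in hypoxia and 0.371 to 1.01 CPM in normoxia. Dll1 (ENSMUSG00000014773, chromosome 17, 15367354 to 15376872), a Delta-like ligand, had 0.334 to 0.937 CPM in hypoxia and 0.297 to 0.722 CPM in normoxia. Jag2 changed by -0.45 (SE 0.33, limma-trend adjusted p = 0.32) and Dll1 by -0.27 (SE 0.31, limma-trend adjusted p = 0.54) on the log2 scale, and neither passed. Both were lower in normoxia in 4 of 4 same-numbered pairs, yet the groups overlapped for both. Dll4 (ENSMUSG00000027314, chromosome 2, 119325784 to 119335962) had no counts.

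Hes1 (ENSMUSG00000022528, GRCm38, chromosome 16, 30064384 to 30067796), a transcriptional repressor and a direct Notch target that other signals also use, had 12.8, 11.9, 10.6 and 9.40 CPM in hypoxia. In normoxia it had 16.6, 12.2, 13.2 and 14.7 CPM. The groups overlapped in that hypoxia replicate 1 exceeded normoxia replicate 2, and the samples numbered 1 were the highest of their groups. The log2 change was 0.34 (SE 0.13), just outside the threshold in the unpaired fit (limma-trend adjusted p = 0.056) and inside it with the block (limma-trend adjusted p = 0.011). All 4 pairs were higher in normoxia, from 0.035 to 0.63. With the GC and length correction Hes1 passed at 0.40 (limma-trend adjusted p = 0.038 unpaired and 0.0023 paired).

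Hey1 (ENSMUSG00000040289, GRCm38, chromosome 3, 8663359 to 8667256), a repressor related to Hes1 and another direct Notch target, had 2.09, 2.97, 3.67 and 3.54 CPM in hypoxia. In normoxia it had 2.82, 1.37, 2.09 and 3.09 CPM, from 19 to 41 counts. The groups overlapped widely. The log2 change of -0.39 (SE 0.25) did not pass the test (limma-trend adjusted p = 0.27, or 0.14 in the paired fit with the block), and 3 of 4 pairs were lower in normoxia. Whether the targets moved apart was asked of the log2 ratio of Hey1 to Hes1. This ratio was -1.82 ± 0.52 at 2% oxygen and -2.54 ± 0.33 at 21% (SD, 4 samples a group), a difference of -0.73 for which the exact permutation p, two-sided and over 70 splits, was 0.086 (0.0286 is the smallest possible). Without hypoxia replicate 1 the difference was -0.95 (exact permutation test, p = 0.0286), and leaving out any other sample gave exact permutation p-values from 0.0857 to 0.171. With the pairs the exact sign-flip permutation p was 0.25, where 4 pairs allow no p below 0.125.

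**Figure D3:**
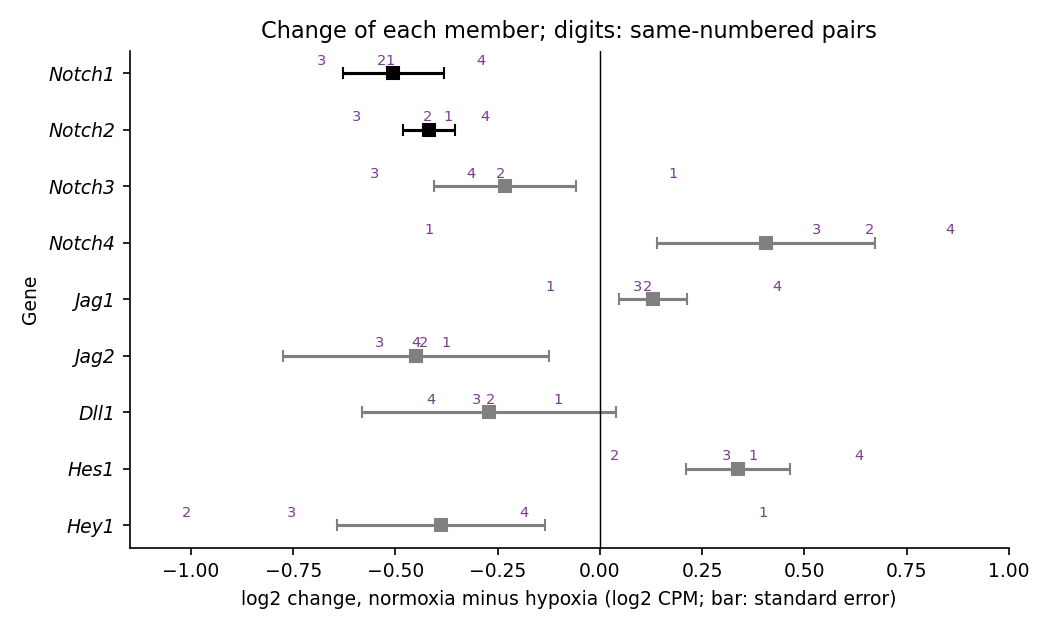
Squares give the log2 change of each tested member (normoxia minus hypoxia, in log2 CPM) with its standard error, black where the adjusted p-value was under 0.05 and grey elsewhere, and digits give the difference within each same-numbered pair. Notch1 and Notch2 lie left of 0 in every pair, Hes1 lies right of 0 in every pair, and pair 1 goes against the other pairs for Notch3, Notch4, Jag1 and Hey1.

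With the replicate block, 4 of the 9 tested members were called, Notch1, Notch2 and Notch3 lower and Hes1 higher, beside 46.0% of all tested genes in either direction, 23.3% higher and 22.7% lower. Samples numbered 1 stood at an end of their group for most members. Hypoxia replicate 1 was the lowest hypoxia sample for Notch1, Notch2, Notch3, Jag2, Dll1 and Hey1 and the highest for Notch4 and Hes1. Normoxia replicate 1 was the lowest normoxia sample for all 4 receptors and for Jag1, Jag2 and Dll1, and the highest for Hes1.

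Markers of the labelled cell type and of blood cells were read beside these values. All 9 MSC markers were tested, and they included the sorting markers Ly6a (Sca-1) and Pdgfra (CD140a), with at least 1928 counts in every sample. Cd44 and Nt5e rose and Eng fell, a share of 33.3% called that was near the 34.6% of all tested genes. The Eng call was lost with the GC and length correction in the unpaired fit (limma-trend adjusted p = 0.32). With the replicate block all 9 passed, 4 higher and 5 lower, beside 46.0% of all tested genes. When block and GC and length correction were combined, 8 passed, beside 43.2% of all tested genes. Of 8 blood markers 5 were tested and 0 passed, with Csf1r, Cd68 and Adgre1, genes of macrophages, at 305 to 3180 counts and Ptprc (CD45), which the sort excludes, at 140 to 263. The summed blood marker level was 206 to 486 CPM in hypoxia and 181 to 387 CPM in normoxia, and lowest in the samples numbered 1. This sum was lower in normoxia in 4 of 4 same-numbered pairs, as were the sums of the MSC, mural and endothelial markers. The largest part of the MSC sum was Cxcl12, with a mean of 1477 CPM in hypoxia and 1197 CPM in normoxia. The MSC sum thus does not describe each marker, since 4 of the 9 were higher with the block. With the replicate block Csf1r, Cd68 and Itgam were called lower, beside 22.7% of all tested genes. When block and GC and length correction were combined, Csf1r, Itgam and Adgre1 were called lower, beside 3093 of 14353 genes. Cd68 then did not pass (limma-trend adjusted p = 0.076). Macrophages also express Notch receptors, and their part in the values above was not tested.

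Of the 76 other genes of the pathway that were listed, 64 were tested, and 11 rose and 19 fell in normoxia. This share of 46.9% called stands beside 34.6% of all tested genes. With the replicate block 15 rose and 26 fell, beside 46.0% of all tested genes called in either direction. The median log2 change was -0.056, and the groups did not overlap for 28 of the 64 genes, beside 32.6% of all tested genes.

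At the steps before cleavage, the genes that passed the unpaired test all fell. Of 6 genes for ligand endocytosis, which pulls on the receptor from the ligand cell, 1 fell and 0 rose. Since 16.5% of all tested genes were called lower, this count was near the background. That gene was Epn1, an epsin, with a log2 change of -0.53 (limma-trend adjusted p = 0.00046). In the paired fit 2 genes of this step fell and 2 rose, beside 22.7% of all tested genes lower and 23.3% higher. Of 5 tested genes for receptor glycosylation and maturation, 3 fell and 0 rose, beside the same 16.5% of all tested genes called lower. Lfng, a fringe enzyme that adds a sugar to the receptor and shifts its response between Delta and Jagged ligands, had 15.8, 18.1, 23.1 and 17.9 CPM in hypoxia and 8.32, 13.3, 13.9 and 14.9 CPM in normoxia. Its groups did not overlap, and its log2 change was -0.58 (SE 0.17, limma-trend adjusted p = 0.020). This call was lost without hypoxia replicate 3, at -0.48 (limma-trend adjusted p = 0.070), and with the GC and length correction without the block, at -0.38 (limma-trend adjusted p = 0.084). Pofut1, which adds O-fucose to the receptors, fell by 0.17 and Furin, which cuts the receptor precursor, fell by 0.23 on the log2 scale. Both calls were lost with the GC and length correction in the unpaired fit (limma-trend adjusted p = 0.051 for Pofut1 and 0.20 for Furin, whose change was then -0.11). The correction left Epn1 past the threshold at -0.30.

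Among the 5 tested ligands outside the 4 ligand members, 3 fell and 0 rose, beside 16.5% of all tested genes called lower. Dll3, a further Delta-like ligand, had 0 to 4 counts per sample and was not tested. Mfap2 and Mfap5, microfibril proteins that can bind Notch or its ligands, fell by 1.05 and 0.65 on the log2 scale (limma-trend adjusted p = 0.00014 and 0.00011), and their groups did not overlap. They are also components of elastic fibres. Dlk1, an imprinted Delta-like protein that restrains fat cell formation, had a log2 change of -1.22 (SE 0.26, limma-trend adjusted p = 0.0037) and was lower in 4 of 4 pairs. It was named after its values were seen, since its groups overlapped.

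At the cleavage steps 1 of 2 sheddase genes rose in the unpaired fit, while most genes of the γ-secretase complex fell. Adam10, the main sheddase of ligand-bound Notch, had 143, 142, 142 and 130 CPM in hypoxia and 171, 160, 164 and 165 CPM in normoxia. Its log2 change was 0.24 (SE 0.053, limma-trend adjusted p = 0.0042), but with the GC and length correction it was 0.033 (limma-trend adjusted p = 0.66). Adam17, the other sheddase gene, changed by -0.072 and did not pass (limma-trend adjusted p = 0.47). With the correction Adam17 was called lower at -0.22 (limma-trend adjusted p = 0.025), so the rise at this step did not hold there. Of the 7 γ-secretase genes, 5 fell and 0 rose, beside 16.5% of all tested genes called lower. The count was 6 with the replicate block, beside 22.7%. It was 4 when block and GC and length correction were combined, beside 3093 of 14353 genes called lower. Aph1a, a scaffold subunit, had 166, 159, 184 and 178 CPM in hypoxia and 102, 98.8, 113 and 110 CPM in normoxia. Its groups were far apart, and its log2 change was -0.69 (SE 0.065, limma-trend adjusted p = 6.0e-05). Within the 4 pairs it ranged only from -0.71 to -0.69. Aph1b fell by 0.56 and Aph1c fell by 0.56 on the log2 scale, and both are uncertain because they are near-identical copies. Ncstn, the substrate-binding nicastrin subunit, fell by 0.18, and Psen2, a catalytic presenilin, fell by 0.28. The Psen2 call was lost with the GC and length correction, at -0.13 (limma-trend adjusted p = 0.20).

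In the nucleus, genes for the activating complex went in both directions, with 2 of 9 tested higher and 3 lower, or 3 higher and 6 lower with the replicate block. Over all tested genes 18.0% were called higher and 16.5% lower, or 23.3% and 22.7% with the block. Rbpj had 323, 326, 324 and 324 CPM in hypoxia and 223, 222, 225 and 248 CPM in normoxia. Hypoxia samples were nearly identical and all above normoxia. The log2 change was -0.50 (SE 0.053, limma-trend adjusted p = 9.9e-05), and it was -0.68 when block and GC and length correction were combined. Maml1, a Mastermind coactivator, changed by -0.30, and Crebbp, an acetyltransferase recruited by it, by -0.41. With the GC and length correction Maml1 stayed past the threshold at -0.19. Kat2b, another acetyltransferase, rose by 0.41, and Snw1, an RBPJ-binding cofactor, rose by 0.35 (limma-trend adjusted p = 0.0089 and 0.0034). The Snw1 change was 0.14 with the GC and length correction and was then not past the threshold (limma-trend adjusted p = 0.18).

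Of 12 tested corepressor genes, 5 rose and 2 fell, beside 18.0% of all tested genes called higher and 16.5% called lower. Cir1, which binds RBPJ and recruits histone deacetylases, had 9.41, 12.8, 7.89 and 9.02 CPM in hypoxia and 17.3, 17.8, 16.4 and 15.8 CPM in normoxia. Its log2 change of 0.79 was the largest rise in the pathway list (limma-trend adjusted p = 0.00099). Tle1, a Groucho corepressor that works with Hes proteins, rose by 0.58, Hdac1 by 0.42 and Ctbp2 by 0.32 on the log2 scale, all without overlap between the groups.

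Among 11 tested genes of receptor trafficking and turnover, 2 rose and 2 fell. This share of 36.4% called was near the 34.6% of all tested genes. Itch, a ubiquitin ligase that targets Notch, rose by 0.25 (limma-trend adjusted p = 0.0052), and with the GC and length correction its change was 0.039 (limma-trend adjusted p = 0.60). Fbxw7, the ligase subunit that marks the cleaved receptor for degradation, rose by 0.56 (SE 0.15, limma-trend adjusted p = 0.011) and was named after its values were seen. Of the 14 further target genes, 7 were tested, 1 rose and 0 fell, beside 18.0% of all tested genes called higher. With the replicate block 2 rose, beside 23.3%. When block and GC and length correction were combined, 4 rose (Hes6, Myc, Ccnd1 and Cdkn1a) and 0 fell. In that fit 3109 of 14353 genes were called higher, and 43.2% were called in either direction. The gene that rose in the unpaired fit was Cdkn1a, also a target of p53, at 0.20 (limma-trend adjusted p = 0.041). It changed by 0.33 with the GC and length correction. These genes were named after their values were seen. Hes3 and Nrarp had 0 counts in every sample, Hes5 had at most 1 and Heyl at most 6, so these targets were not detectable or not testable at this depth.

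**Figure D4:**
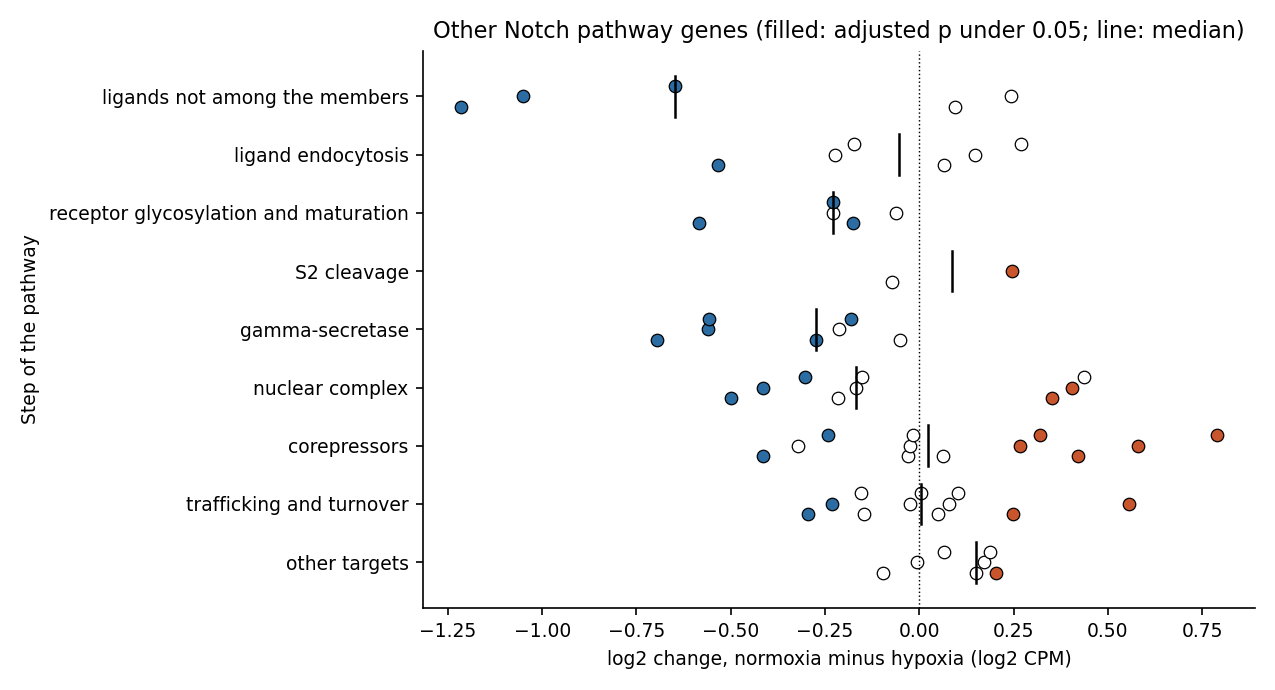
Each point is the log2 change (normoxia minus hypoxia, in log2 CPM) of a tested pathway gene, arranged by step, filled blue or orange where it fell or rose with an adjusted p-value under 0.05 and open elsewhere, and the vertical line is the median of the step. The γ-secretase points all lie left of 0, whereas the nuclear complex and the corepressors have filled points on both sides.

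The tested genes whose levels ran closest to a member were found by the root-mean-square difference of centred log2 CPM over the 8 samples, which includes the difference between the groups. Among the closest to Notch2 were Tnrc18 at 0.032 and Wbp2 at 0.039. Closest to Jag1 were Nr2c2 at 0.051, Fam13c at 0.055 and LTO1 at 0.059. Closest to Hes1, the more counted target, were Cul4b at 0.070, Cdc27 at 0.077 and Fmn1 at 0.077. These are descriptions over 8 samples and 14368 other genes.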

How the data were processed

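RNA-seq counts were analysed from 4 hypoxia and 4 normoxia samples. The authors prepared NEBNext libraries from total RNA, sequenced single-end reads, and made the deposited raw counts per gene with zUMIs, STAR, samtools and featureCounts on mm10 (GRCm38). Strand, intron and multi-mapping settings are not stated.

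Symbols, positions and exon lengths came from GENCODE M21, on the same assembly. Genes were kept by filterByExpr of edgeR 4.0.16 (minimum count 5), and log2 CPM (TMM factors, prior count 3) was tested with limma-trend (limma 3.58.1, R 4.3.3), and p-values were adjusted by Benjamini-Hochberg over 14369 genes, with 0.05 as the threshold. Positive log2 changes are higher in normoxia, and the prior count shrinks those of sparsely counted genes. Alternatives included limma-voom, DESeq2 1.42.0 and the quasi-likelihood test of edgeR. The GC and length correction removed a natural spline of each (5 degrees of freedom) from every sample.

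Same-numbered samples were taken as pairs, since the study divided sorted cells between the oxygen levels and deviations from group means correlated across genes at 0.47, 0.28, 0.25 and 0.17 for pairs 1 to 4. Correlations of differently numbered samples are not given, so these values cannot show that equal numbers belong together. The sources used here do not state that equal numbers mark a shared sort, so the pairing is an assumption of the block and pair results. The study describes independent biological replicates. No pair of replicates agreed within sampling noise (chi-square per degree of freedom at least 3.66). Fits were tested on simulated data.

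Members and lists were chosen with earlier results of these data known. The text names the members, the pathway genes past the threshold without overlap between groups (up to 8 rises and 8 falls), and the 3 genes nearest to the most counted receptor, ligand and target. Other names were chosen after their values were seen. A few genes that these rules select are not reported here.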

Additional observations from a re-analysis of the deposited data

Results flagged for a closer look

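In each group of 4, a sample far from the other 3 was searched for in 52 sets of values, by the gap to its neighbour over the range of the group against a critical value of 0.829. Chance flags about 1 in 20 groups, or 2.6 here, and 4 were found. Jag1 in hypoxia replicate 4 was at 5.94 log2 CPM, against 6.08 to 6.10 in the other hypoxia samples, and without it the log2 change of Jag1 was 0.092. Adam10 in the same sample was at 7.03 against 7.15 to 7.16. Rbpj in hypoxia replicate 2 was at 8.35 against 8.34 in the others, a gap that is small in itself because these samples were nearly identical. Rbpj in normoxia replicate 4 was at 7.95 against 7.80 to 7.81, the nearest normoxia sample to hypoxia.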

How the results depend on the processing

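None of the 9 tested members changed direction under any alternative run. Notch1 and Notch2 were called in all 20 alternatives, with log2 changes from -0.60 to -0.33 and from -0.45 to -0.30. Hes1 passed in 6 of 20, at 0.25 to 0.43 over all of them, including the fits without hypoxia replicate 1 (limma-trend adjusted p = 0.027) and without normoxia replicate 2 (0.045). With the replicate block 4 members were called against 2, and leaving out 1 sample at a time gave 2 to 4 members, with 4 only without hypoxia replicate 1. At a threshold of 0.01, 2925 genes were called against 4970, and 18 pathway genes against 30. The pathway count with the block was 41. The Hey1 to Hes1 difference was -0.95 to -0.57 with 1 sample left out. With the replicate block its exact sign-flip permutation p was 0.25. The block ended no call of a pathway gene named under the rule. Dll1 could not be fitted with a minimum count of 10. Counts of 4 to 42 limit Notch4, Jag2 and Dll1, and 0 counts limit Dll4.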
